A study of Mus musculus with 6 samples.

Results

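The 9 genes described here encode heat shock proteins of mouse testis and were chosen by name. *Hspa2*, *Hspa1l* and *Hspa4l* are the forms typical of germ cells. *Hspa1a*, *Hspa1b*, *Hsph1* and *Hsp90aa1* are inducible forms, and *Hspa8* and *Hsp90ab1* are constitutive forms found in most cells. They are 9 of the 27376 gene names on the array and 9 of the 19181 that could be tested. A total of 17 probes of 60 bases carried these names, and 16 of them were tested, with at least 1 for every gene.

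Testis RNA was taken from 3 *Prss55*-/- and 3 wt male mice of 6 to 8 weeks, on a mixed 129Sv and C57BL/6 background, and was hybridized with 1 dye to whole mouse genome arrays. The null allele was made by homologous recombination in embryonic stem cells, so that every cell of the animal carries it. *Prss55* encodes a serine protease of the testis that is anchored in the membrane. The labels name no treatment for either genotype. Values are log2 signals after quantile normalization, and a difference is *Prss55*-/- minus wt on that scale, where 1 unit is 2-fold.

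Heat shock proteins of the HSP70 family bind unfolded stretches of other proteins and release them in a cycle driven by ATP. J-domain proteins start that cycle, and HSP110 relatives and BAG proteins speed the exchange of nucleotide that ends it. HSP90 proteins receive part of the clients later, together with co-chaperones of their own. In the testis, *Hspa2* is switched on in meiotic spermatocytes and is known to be required for male meiosis, and *Hspa1l* is expressed in spermatids. Heat shock factors bind repeats of a short element in the promoters of the inducible genes.

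The study reports that *Prss55*-/- mice lack RNA of the targeted gene by RT-PCR, and its protein by Western blot and immunofluorescence. On the arrays the targeted gene was read by 1 probe. Its log2 signals were 15.08, 14.95 and 14.93 in *Prss55*-/- testis and 15.87, 15.77 and 16.01 in wt testis. The signal was therefore lower on every *Prss55*-/- array but well above background on all 6, and whether the probe lies in the deleted part of the gene was not tested. The difference was -0.90 (SE 0.080, n = 3 per genotype, limma adjusted p = 0.01), and the adjusted p rose to 0.0596, 0.0698 and 0.0627 without *Prss55*-/- replicate 2, *Prss55*-/- replicate 3 and wt replicate 1. Between 69.5% and 72.9% of the spots were well above background on an array, and no spot was saturated. One slide carried all *Prss55*-/- arrays and 2 other slides the wt arrays, so that slide and genotype cannot be told apart. Precision is limited by having 3 arrays per genotype.

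Because the genes of the HSP70 family resemble each other, the probes that lie on one stretch of the family are shown, with the 2 germ-cell forms set against the inducible form. Capitals in the *Hspa1l* and *Hspa2* probes mark bases identical to the *Hspa1b* probe in an alignment without gaps, and capitals in the *Hspa1b* probe mark bases identical in both of the others.
Hspa1b, chr17:35094200-35094259, minus strand: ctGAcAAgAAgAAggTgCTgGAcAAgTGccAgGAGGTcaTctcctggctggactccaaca
Hspa1l, chr17:35115629-35115688, plus strand: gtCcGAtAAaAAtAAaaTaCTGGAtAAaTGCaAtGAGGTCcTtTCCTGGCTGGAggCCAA
Hspa2, second probe, chr12:77507203-77507262, plus strand: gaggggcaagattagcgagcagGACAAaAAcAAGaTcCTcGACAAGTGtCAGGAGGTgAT
The *Hspa1l* probe matched the *Hspa1b* probe at 43 of 58 overlapping bases (74.1%), and the *Hspa2* probe at 31 of 40 (77.5%). Positions are those of the array files, which do not name their genome build. *Hspa1a* and *Hspa1b* could not be separated to the same degree. The files list the transcripts of both genes, 2 in all, for each of the 2 *Hspa1b* probes, so a signal under the name *Hspa1b* may come from either gene. The 2 *Hspa1a* probes list *Hspa1a* alone, but they overlap by 30 bases and are not independent readings. The shared bases are shown because they tie the readings of the 2 probes together.
Hspa1a, shared by both probes, chr17:35106796-35106825, minus strand: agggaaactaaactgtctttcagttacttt

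None of the 9 genes passed the test between *Prss55*-/- and wt testis. Of the 16 tested probes, 0 passed at an adjusted p of 0.05 by limma, against 1.21% of the 28606 probes tested. At an unadjusted p of 0.05 the count was also 0, against 19.1% of all tested probes, and with a 2-fold change required in addition it was 0 against 0.608%. The methods' t-test also called 0 of the genes, adjusted or not. The largest difference of any of the 16 probes was 0.17, and the lowest adjusted p was 0.347. The absolute difference had a median of 0.049 over the 16 probes and of 0.095 over all tested probes, while the SD within a genotype had medians of 0.069 and 0.092. A 2-fold change lay outside the 95% interval of each of the 16 probes, whose bounds reached from -0.33 to 0.39, or 0.797-fold to 1.31-fold. RNA of whole testis was measured, so fewer cells of a type and less RNA per cell cannot be told apart.

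**Figure D1:**
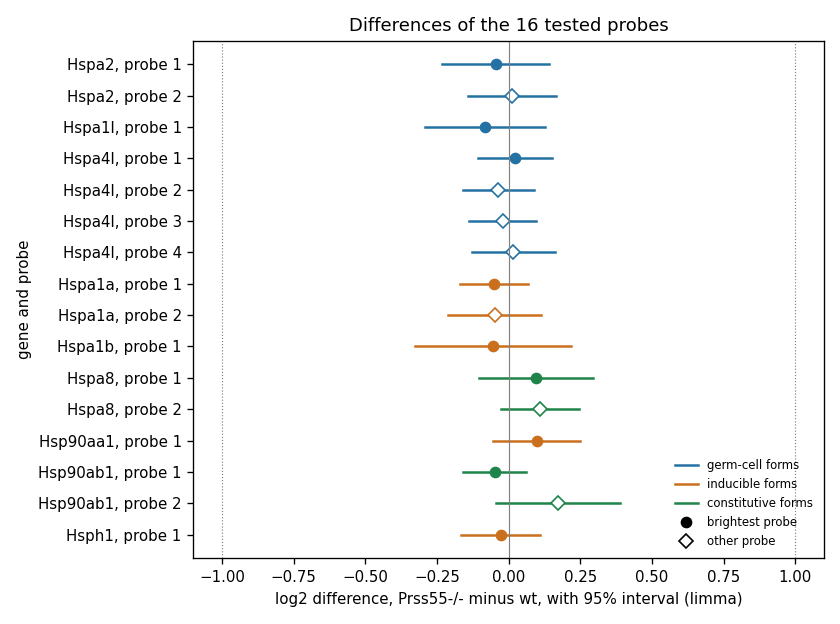
Each row is a tested probe of a heat shock protein gene, with the difference in log2 signal, *Prss55*-/- minus wt (n = 3 each), on the horizontal axis and the 95% interval from limma as a line. Filled circles are the brightest probe of a gene, open diamonds its other probes, and colours the form. All 16 intervals include 0 and none reaches the dotted lines at a 2-fold change.

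Of the germ-cell forms, 0 of 3 genes and 0 of 7 probes passed either threshold, and *Prss55*-/- and wt values overlapped for every probe. The bounds of their intervals ran from -0.29 to 0.16, which is 0.817-fold to 1.12-fold. *Hspa2*, the HSP70 of meiotic and later germ cells, gave log2 signals of 15.84, 15.91 and 15.82 in *Prss55*-/- testis and 15.94, 16.01 and 15.76 in wt testis. The lowest and the highest of the 6 values were both from wt mice. The difference was -0.045 (SE 0.077, 95% interval -0.23 to 0.14, limma adjusted p = 0.783). The second *Hspa2* probe, shown above, read 14.63, 14.70 and 14.69 against 14.77, 14.59 and 14.62 in wt. Its difference was of the other sign and smaller, at 0.012 (95% interval -0.14 to 0.16, limma adjusted p = 0.938).

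*Hspa1l*, a relative of the inducible HSP70 genes that is expressed without heat in spermatids, gave 15.32, 15.27 and 15.15 in *Prss55*-/- testis and 15.24, 15.26 and 15.48 in wt testis. The genotypes overlapped, and the highest value came from wt replicate 3. The difference of -0.082 (SE 0.086, 95% interval -0.29 to 0.13, limma adjusted p = 0.643) was the most negative among the 16 probes. It rested largely on wt replicate 3, without which it was -0.0032, while it was -0.13 without wt replicate 1.

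*Hspa4l* encodes an HSP110 relative that acts as a nucleotide exchange factor and is abundant in spermatogenic cells. Its brightest probe read 16.63, 16.62 and 16.64 in *Prss55*-/- testis and 16.55, 16.68 and 16.60 in wt testis. The *Prss55*-/- values lay inside the wt range. The difference was 0.023 (SE 0.053, 95% interval -0.11 to 0.15, limma adjusted p = 0.842). Its 3 other probes differed by -0.036, -0.021 and 0.017, so that the 4 probes split evenly in sign around 0.

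The inducible forms also stayed within the spread between mice, with 0 of 4 genes past either threshold. *Hspa1a*, a classical heat-inducible HSP70, gave 11.23, 11.25 and 11.15 in *Prss55*-/- testis and 11.24, 11.25 and 11.29 in wt testis. Only *Prss55*-/- replicate 3 fell below the range of the wt mice by more than 0.05, and the difference was -0.051 (SE 0.049, 95% interval -0.17 to 0.068, limma adjusted p = 0.606). The overlapping second probe gave a difference of -0.048 (limma adjusted p = 0.728). The probe named *Hspa1b*, which may read *Hspa1a* as well, gave 8.08, 8.26 and 8.05 in *Prss55*-/- testis and 8.21, 7.98 and 8.37 in wt testis. The wt values spanned the *Prss55*-/- values on both sides. Its difference of -0.056 had the largest standard error of the 16 probes (SE 0.11, 95% interval -0.33 to 0.22, limma adjusted p = 0.814). The second *Hspa1b* probe was not tested, since 1 *Prss55*-/- array and no wt array gave a signal well above background.

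*Hsp90aa1*, the inducible HSP90, gave 16.80, 16.79 and 16.75 in *Prss55*-/- testis and 16.76, 16.57 and 16.72 in wt testis. The low value of wt replicate 2 set most of the difference between the means, which was 0.098 (SE 0.062, 95% interval -0.053 to 0.25, limma adjusted p = 0.439). Without that array the difference was smaller, at 0.043. *Hsph1*, which encodes the inducible HSP110 member and serves HSP70 as a nucleotide exchange factor, gave 12.71, 12.68 and 12.62 in *Prss55*-/- testis and 12.77, 12.68 and 12.64 in wt testis. Its values interleaved, with a difference of -0.028 (SE 0.056, 95% interval -0.16 to 0.11, limma adjusted p = 0.816).

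The constitutive forms held the only probes with no overlap between genotypes, 2 of the 16, against 26.3% of all tested probes. With 3 mice against 3 an exact permutation test of a single probe cannot go below 0.1. *Hspa8*, the HSC70 chaperone of housekeeping protein folding and clathrin uncoating, gave 14.25, 14.05 and 14.09 in *Prss55*-/- testis and 14.03, 13.93 and 14.15 in wt testis. These values overlapped, and the difference was 0.097 (SE 0.082, 95% interval -0.10 to 0.30, limma adjusted p = 0.557). It was 0.036 without *Prss55*-/- replicate 1, the highest array. The second *Hspa8* probe read 11.62, 11.50 and 11.52 against 11.38, 11.46 and 11.47 in wt. All its *Prss55*-/- values were above all its wt values, by a mean of 0.11 (SE 0.056, 95% interval -0.027 to 0.24, limma adjusted p = 0.348).

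*Hsp90ab1*, the constitutive HSP90, was read by 2 probes of opposite sign. The brighter gave 13.55, 13.60 and 13.57 in *Prss55*-/- testis and 13.66, 13.62 and 13.59 in wt testis, a difference of -0.049 (SE 0.045, 95% interval -0.16 to 0.062, limma adjusted p = 0.598). The other gave 11.41, 11.14 and 11.21 in *Prss55*-/- testis and 10.97, 11.14 and 11.13 in wt testis. Here every *Prss55*-/- value was higher, though *Prss55*-/- replicate 2 exceeded the highest wt value by a margin smaller than the rounding. The difference was 0.17 (SE 0.089, 95% interval -0.043 to 0.39, limma adjusted p = 0.347). Under the normexp background correction this probe had an unadjusted p of 0.038 at a difference of 0.20, with a limma adjusted p of 0.276, and it was the only probe of the 9 genes below an unadjusted 0.05 under any alternative.

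**Figure D2:**
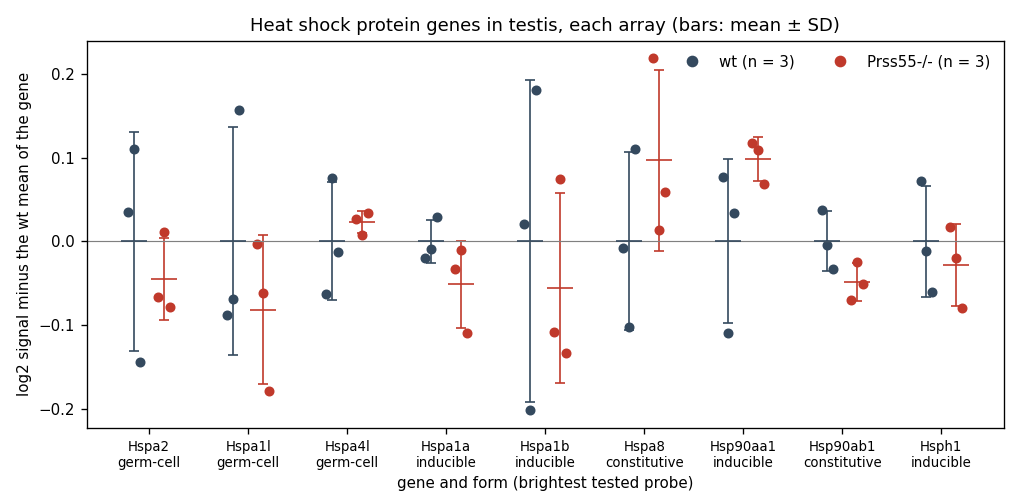
For each heat shock protein gene the log2 signal of its brightest tested probe is plotted for the 3 wt and the 3 *Prss55*-/- arrays as the deviation from the wt mean of that gene, with mean and SD as bars. The points of both genotypes overlap for all 9 genes. The germ-cell forms lie at the left, and the other labels name the inducible and constitutive forms.

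The germ-cell forms were then set against the other 6 genes on each array. The median deviation of the germ-cell forms from the wt mean was -0.0034, 0.008 and -0.079 on the *Prss55*-/- arrays and -0.063, 0.076 and -0.013 on the wt arrays. That of the other 6 genes was -0.0082, 0.0014 and -0.066 on the *Prss55*-/- arrays and 0.030, -0.057 and 0.031 on the wt arrays. The gap between both medians was 0.0048, 0.0067 and -0.013 in *Prss55*-/- testis, and it varied more in wt testis, at -0.093, 0.13 and -0.044. All *Prss55*-/- gaps lay inside the range of the wt gaps. Over the genotypes, the median difference was -0.045 for the 3 germ-cell genes and -0.038 for the other 6, where all tested probes had a median of 0.0019. A count of 1 of 3 germ-cell genes and 2 of 6 others had a positive difference.

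**Figure D3:**
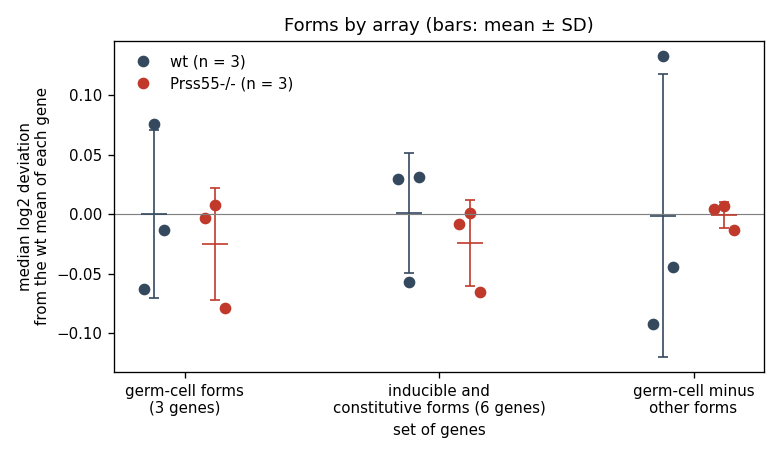
The median log2 deviation from the wt mean of each gene is plotted per array for the 3 germ-cell genes, for the 6 inducible and constitutive genes, and for the first minus the second, with mean and SD as bars (n = 3 per genotype). The *Prss55*-/- values of the gap, from -0.013 to 0.0067, lie within the wt range of -0.093 to 0.13.

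In the rest of the chaperone network 1 gene passed the adjusted threshold, *Dnajc17*, which was lower in *Prss55*-/- testis. That threshold was passed by 1.21% of all tested probes. Of 124 listed genes, 116 were tested with 204 probes. An unadjusted p below 0.05 was found for 17 of these probes, from 15 genes. That is 8.33% of the 204 probes, against 19.1% of all tested probes. The median difference of the 116 genes was 0.0071. *Dnajc17*, a J-domain protein with an RNA recognition motif, gave 10.61, 10.46 and 10.45 in *Prss55*-/- testis and 11.25, 11.06 and 11.31 in wt testis. Every *Prss55*-/- value was below every wt value, where 26.3% of all tested probes had no overlap in either direction. The difference was -0.70 (SE 0.085, 95% interval -0.90 to -0.49, limma adjusted p = 0.0267). Its second probe differed by -0.17 (limma adjusted p = 0.328), and the adjusted p of the brighter probe rose to 0.118, 0.129, 0.120 and 0.0505 without *Prss55*-/- replicate 2, *Prss55*-/- replicate 3, wt replicate 1 and wt replicate 3.

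Among the partners of HSP70, 1 of 42 tested J-domain genes passed, and it was lower, where 1.21% of all tested probes passed. Of the 13 HSP70 co-chaperones 0 passed. Their largest differences were in *Bag3*, a heat-inducible BAG protein that links HSP70 to selective autophagy (-0.28, limma adjusted p = 0.0747), and in *Bag2*, which inhibits the ubiquitin ligase that works with HSP70 (0.24, adjusted p = 0.124). The dimmer *Bag3* probe differed by -0.17 (limma adjusted p = 0.213). Of the 10 other HSP70, HSP110 and HSP90 genes 0 passed. By brightest probe, the largest differences were in *Hspa5* and *Hyou1*. *Hspa5*, the HSP70 of the endoplasmic reticulum, differed by -0.18 (limma adjusted p = 0.289). *Hyou1*, its HSP110 partner, differed by -0.080 (adjusted p = 0.454). Dimmer probes differed more, among them *Hspa12a* (-0.32, adjusted p = 0.102), *Hyou1* (-0.21, adjusted p = 0.149) and *Hsp90b1* (0.19, adjusted p = 0.511). By limma, 2 of the 20 probes had an unadjusted p below 0.05 (10%), against 19.1% of all tested probes. Each of these lists had members on both sides of 0, as the plot of the network shows.

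Of the 20 tested HSP90 co-chaperones 0 passed. *Rpap3*, a subunit of the R2TP complex that works with HSP90, read 10.82, 11.52 and 11.48 in *Prss55*-/- testis and 10.87, 10.80 and 10.80 in wt testis. One *Prss55*-/- mouse matched wt and the others were higher, for a difference of 0.45 (limma adjusted p = 0.267). Without that mouse, *Prss55*-/- replicate 1, the difference was 0.68 and the adjusted p 0.0074. That fit left out the value nearest to wt, and on all arrays *Rpap3* was not called. *Fkbp5*, an immunophilin of steroid receptor complexes, differed by -0.19 (adjusted p = 0.288).

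Of the 10 tested small heat shock proteins 0 passed. *Hspb8*, which acts with BAG3, differed by -0.87 (limma adjusted p = 0.209), but 1 of its 3 *Prss55*-/- values was not well above background. *Cryaa*, a lens crystallin, differed by 0.40 (limma adjusted p = 0.324), with only 1 of 3 wt values well above background. Of the 11 chaperonin genes 0 passed. By brightest probe, the largest differences were 0.10 for *Cct2* and 0.079 for *Cct6a*, subunits of the cytosolic folding chamber (limma adjusted p = 0.324 and 0.637). Dimmer probes of *Tcp1* and *Cct3* differed by 0.14 and -0.12 (limma adjusted p = 0.297 and 0.735). The value of *Cct6a* depended on single arrays, at 0.0072 without wt replicate 3 and 0.16 without wt replicate 2.

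Heat shock factors and the targets of heat shock gave no called change. Of the 7 tested genes of the heat shock factor list 0 passed. *Hsf2*, a factor active in spermatocytes, read 10.17, 10.17 and 10.15 in *Prss55*-/- testis and 9.82, 9.78 and 10.03 in wt testis. Every *Prss55*-/- value was higher, with a difference of 0.28 (limma adjusted p = 0.129). Leaving out wt replicate 3, the wt value nearest to those of *Prss55*-/-, gave a limma adjusted p of 0.0481, and the gene was not called. The dimmer *Hsf2* probe, also higher on every *Prss55*-/- array, differed by 0.31 (limma adjusted p = 0.156). *Hsfy2*, a testis gene of the same family, was likewise higher on every *Prss55*-/- array, by 0.20 (limma adjusted p = 0.116). Both genes were named for the largest differences of their list, and 26.3% of all tested probes had no overlap between genotypes. Of 15 heat-inducible genes outside the 9, 0 passed. The median was -0.021. By brightest probe, the largest differences were -0.30 for *Serpinh1*, the collagen chaperone (limma adjusted p = 0.141), and that of *Bag3* given above. A dimmer probe of *Cryab* differed by -0.39 (limma adjusted p = 0.201).

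Stretches of promoter show where inducible members match the letters of heat shock elements. RefSeq windows of GRCm38.p6, from 250 bases before to 50 bases after a start site, were at hand for 6 of the 9 genes (7 windows). *Hspa8*, *Hsp90aa1* and *Hsp90ab1* had none. A match to the 3-unit element GAANNTTCNNGAA, on either strand, was found in 0.603% of 32851 windows, and among these genes only in *Hsph1*. The 2-unit elements GAANNTTC and TTCNNGAA, each its own reverse complement and both contained in the 3-unit element, were found in 15.1% of windows in at least 1 of the orders. *Hsph1*, *Hspa1a* and *Hspa1b* had them, and *Hspa2*, *Hspa1l* and *Hspa4l* did not. Capitals mark the match.
Hsph1, 3-unit match after the start site, chr5:149636287-149636308, minus strand: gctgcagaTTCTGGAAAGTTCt
Hsph1, 2-unit match before the start site, chr5:149636337-149636384, minus strand: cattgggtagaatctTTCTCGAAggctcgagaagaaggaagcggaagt
Hspa1a, chr17:34972238-34972275, minus strand: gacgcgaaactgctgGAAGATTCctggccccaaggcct
Hspa1b, chr17:34959320-34959357, minus strand: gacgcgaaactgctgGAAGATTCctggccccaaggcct
The stretches of *Hspa1a* and *Hspa1b* are the same, and 98.8% of the 250 bases before their start sites were identical. *Hspa1l* starts 547 bases from *Hspa1a* in the opposite direction. These neighbours, an inducible and a germ-cell form, had differences of -0.051 and -0.082. A match describes letters only.

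**Figure D4:**
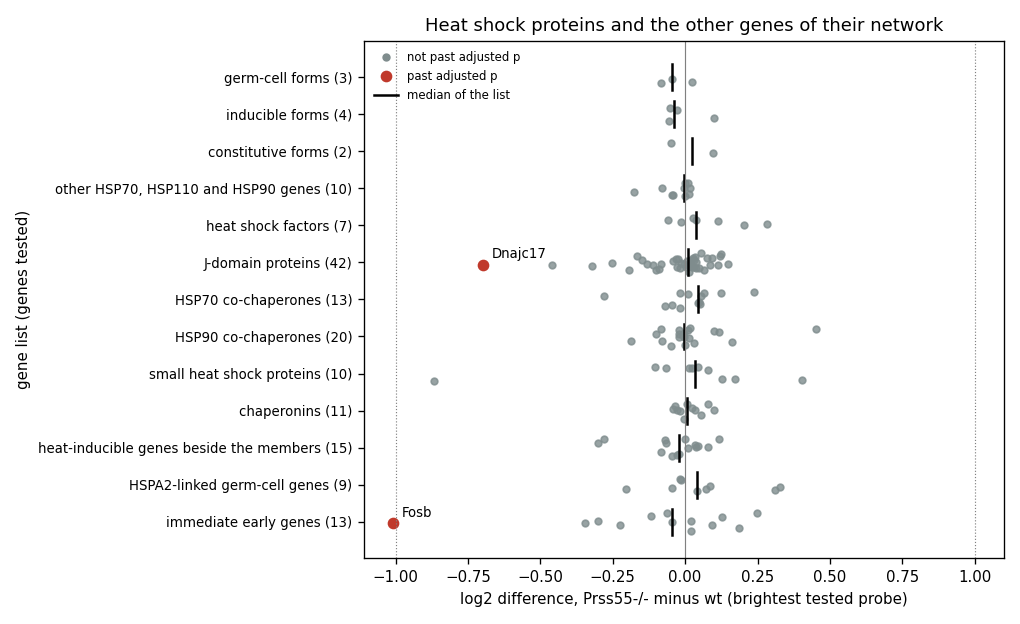
Each point is a gene, placed by the difference in log2 signal (*Prss55*-/- minus wt) of its brightest tested probe, for the 3 forms of heat shock protein described here and the 10 other lists, with the number of tested genes in parentheses and the list median as a black line. *Dnajc17* at -0.70 and *Fosb* at -1.01 are the genes past the adjusted threshold, and the heat shock protein forms lie within 0.1 of 0.

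The list of genes tied to *Hspa2* in germ cells holds its clients and the meiotic genes around it, and 0 of 9 passed. *Spam1*, a sperm surface hyaluronidase, differed by 0.33 (limma adjusted p = 0.0989) and *Sycp1*, a component of the synaptonemal complex, by 0.31 (adjusted p = 0.126). Both were higher on every *Prss55*-/- array. They were named for the largest differences of the list, and 26.3% of all tested probes had no overlap between genotypes. Immediate early genes were listed as a sign of handling stress, and 1 of 13 passed, where 1.21% of all tested probes passed. *Fosb*, a subunit of the AP-1 transcription factor, gave 5.22, 5.37 and 5.43 in *Prss55*-/- testis and 6.20, 6.42 and 6.43 in wt testis. It fell by 1.01 on the log2 scale (SE 0.088, limma adjusted p = 0.0093), and the adjusted p was 0.0534 without *Prss55*-/- replicate 2 and 0.0564 without *Prss55*-/- replicate 3. Under the normexp background correction the difference was smaller, at -0.44 (limma adjusted p = 0.0285). The median of the list was -0.046. By limma, 5 of its 18 probes had an unadjusted p below 0.05 (27.8%), against 19.1% of all tested probes. They came from 4 genes lower and 1 gene higher in *Prss55*-/- testis. *Fos* and *Atf3* were listed but could not be tested.

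Markers of the cells of the testis were set beside the germ-cell forms. All tested markers of testis cells, germ cells included, were well above background on at least 1 array of each genotype. Of 10 round spermatid markers, 8 were higher in *Prss55*-/- testis at an unadjusted 0.05 and 0 at the adjusted threshold, with a median of 0.19. An unadjusted p below 0.05 was found for 19.1% of all tested probes, the background for this count and for that of the Leydig cell markers. The summed log2 level was 18.21 to 18.30 in *Prss55*-/- testis and 18.10 to 18.15 in wt testis. Markers of pachytene spermatocytes had a median of -0.0001 and a summed level of 18.98 to 19.04 against 18.92 to 19.04. Those of elongating spermatids had a median of -0.011 and a summed level of 21.30 to 21.37 against 21.34 to 21.38. Quantile normalization gives the brightest ranks the same values on every array. The elongating spermatid sum, led by *Tnp1*, *Prm1* and *Prm2* at 18.8 to 18.9, could therefore hardly differ between genotypes. The pachytene sum, led by *Ldhc* at 18.2, was limited in part the same way. Of 7 Leydig cell markers, 3 were lower at an unadjusted 0.05 by their brightest probe, and 4 when any probe of a gene counts, since a dimmer probe of *Cyp11a1* passed. By limma, the unadjusted p of *Cyp11a1* was 0.052 for its brightest probe and 0.0431 for the dimmer one. At the adjusted threshold 0 of the 7 passed. Their median was -0.56, and *Hsd3b6* alone went the other way, at 0.37 (limma unadjusted p = 0.129). The summed level was 15.09 to 15.712 in *Prss55*-/- testis and 15.708 to 15.91 in wt testis, so these ranges overlapped. The mean differences of the 3 germ-cell heat shock genes on the same arrays were within 0.1 of 0, and the part of these markers in them was not tested.

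By brightest probe, the largest differences in each of these lists were *Catsper4* (0.30) and *Tex36* (0.28) for round spermatids, *Sycp1* (0.31) and *Hormad1* (0.091) for spermatocytes, and *Tnp2* (-0.20) and *Gapdhs* (0.11) for elongating spermatids. For Leydig cells they were *Star* (-0.73), the carrier of cholesterol into mitochondria, and *Hsd3b1* (-0.67), an enzyme of steroid synthesis. *Star* read 12.68, 10.49 and 10.46 in *Prss55*-/- testis and 12.05, 11.42 and 12.34 in wt testis, so the mice of both genotypes overlapped. Leaving out the high *Prss55*-/- replicate 1 moved its difference to -1.46 (limma adjusted p = 0.0648), and leaving out replicate 2 or replicate 3 of that genotype moved it to -0.37 or -0.36. *Hsd3b1* had an adjusted p of 0.0715 by limma, and of 0.0089 without *Prss55*-/- replicate 1, its *Prss55*-/- value nearest to wt. None of the lists of spermatogonia, Sertoli cells, peritubular and vascular cells, macrophages, blood or epididymis had a gene past the adjusted threshold. Their largest differences by brightest probe were *Dmrt1* (0.35) and *Stra8* (-0.19) for spermatogonia, *Fshr* (-0.27) and *Rhox5* (0.26) for Sertoli cells, and *Vwf* (-0.14) and *Acta2* (-0.14) for peritubular and vascular cells. For macrophages they were *Cx3cr1* (-0.79) and *Cd68* (-0.24), for blood *Slc4a1* (0.21) and *Hba-a1* (-0.12), and for the epididymis *Rnase10* (-2.91, limma adjusted p = 0.0925, and 0.0041 without *Prss55*-/- replicate 1) and *Lcn9* (0.53).

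As a description, the probes whose 6 values ran most like those of 3 members were found by Pearson correlation. For *Hspa2* they were *Rps10* (r = 0.991), *Slc9b1* (0.991) and *Fubp3* (0.990). For *Hspa1b* they were *Gpr39* (0.994), *B4galnt3* (0.992) and *Vash1* (0.985), and for *Hspa8* they were *Sf3b3* (0.996), *Gnptab* (0.994) and *Slc39a9* (0.992). Over 6 arrays many probes come close: 231 of 23488 named probes had r above 0.9 with *Hspa2*, 181 of 23489 with *Hspa1b* and 279 of 23488 with *Hspa8*. The 6 points share arrays, normalization and genotype.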

How the data were processed

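The authors deposited the Agilent Feature Extraction 10.7 output of each of the 6 arrays, in which the processed signal is a linear intensity with background removed array by array and no scaling across arrays. The deposited matrix of log2 values, which holds quantile-normalized signals of the same arrays, served as an alternative. Outlier spots were set to missing, signals below 1 were set to 1, and log2 signals were quantile-normalized and averaged per probe. A probe was tested if the 3 arrays of either genotype all read it well above background (28606 of 41174 probes). Genotypes were compared by a moderated two-sided test (limma 3.58.1, R 4.3.3) and p-values adjusted by Benjamini-Hochberg over these probes, and the fit was tested on simulated data. The brightest tested probe stood for a gene, and every other probe of the 9 genes is described. Named genes outside the 9 were those past the adjusted threshold in each list, otherwise the 2 with the largest absolute difference. Members and lists were chosen with earlier results of these data known. The labels do not say whether same-numbered mice were pairs, while a figure legend of the study speaks of 3 pairs. The deviations of same-numbered mice correlated at -0.054, -0.023 and -0.11, which cannot settle whether they were paired. A fit with replicate as a block is given below. Alternatives were other scalings, background corrections, filters, tests, blocks, the mean over probes and leaving out each array. Calls rest on the fit to all 6 arrays. Summaries and plots used Python 3.11.15, pandas 2.3.3, scipy 1.17.1 and matplotlib 3.10.9.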

Additional observations from a re-analysis of the deposited data

How the results depend on the processing

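Over 15 alternatives, each of the 9 genes kept an adjusted and an unadjusted p above 0.05 for its brightest tested probe (or the mean of its probes) in all 135 values, with a lowest adjusted p of 0.307 and a largest absolute difference of 0.16. The sign turned in 6 of the 135. The 15 include slide as a random block, which cannot separate slide from genotype here, and fits with 1 array left out, which rest on fewer arrays. As the mean of all probes of a gene, *Hsp90ab1* differed by 0.062 and *Hspa4l* by -0.0043, and the median of the 6 inducible and constitutive genes moved to 0.017; *Hormad1* turned to -0.0055. With 1 array left out, the difference ran from -0.16 to 0.035 for *Hspa1b*, -0.12 to 0.010 for *Hspa2*, -0.0089 to 0.061 for *Hspa4l*, -0.058 to 0.0082 for *Hsph1*, -0.13 to -0.0032 for *Hspa1l*, -0.072 to -0.022 for *Hspa1a*, 0.036 to 0.15 for *Hspa8*, 0.043 to 0.14 for *Hsp90aa1*, -0.065 to -0.030 for *Hsp90ab1* and -0.47 to 0.24 for *Hba-a1*, a haemoglobin gene of the blood list. The cause was not tested. Under normexp 1 of the 9 genes, *Hsp90ab1*, had a probe below an unadjusted 0.05, and the dim genes *Fosb*, *Hspb8*, *Cryaa* and *Rnase10* had differences of -0.44, -0.38, 0.11 and -1.76. With a replicate block, *Hspa2* had an adjusted p of 0.782 and 0 of the 9 genes passed, while 13 genes passed in all against 328 without it, and *Prss55*, *Dnajc17* and *Fosb* had adjusted p of 0.101, 0.112 and 0.0653. With the methods' t-test, their adjusted p were 0.0713, 0.106 and 0.0713. *Dnajc17* had 0.069 with no filter on dim probes and 0.0549 as the mean of its probes. Signal over background limits *Hspb8*, *Cryaa*, *Rnase10* and the second *Hspa1b* probe.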
